A study of Bubalus bubalis with 12 samples.

Results

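Solute carriers (SLC) are membrane proteins that move nutrients, ions, metals and metabolites across the plasma membrane or the membranes of organelles, and genes named SLC form numbered families that share sequence and often substrate. SLC genes were taken as the probe sets whose annotation gave exactly 1 gene symbol, with that symbol beginning with SLC and a digit, and each gene was represented by its probe set with the highest mean over the 12 arrays. This gave 179 SLC genes of 9155 named genes, from 252 of 24016 probe sets tested. The symbols of SLC4A1AP and SLC7A6OS met the rule, but their products are not carriers. SLC7A11 and SLC40A1 were not analysed here.

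Whole corpus luteum (CL), the progesterone-making gland left by the follicle after ovulation, was collected from buffalo cows at cycle day 11. Control animals (0 h, n = 4) had no treatment, and the other animals received 500 µg of cloprostenol, an analogue of prostaglandin F2α (PGF2α) that induces regression of the gland, by intramuscular injection 3 h (n = 2), 6 h (n = 3) or 18 h (n = 3) before collection. The labels name the animals as biological replicates, and no genetic modification is stated. RNA was hybridised to GeneChip Bovine Genome Arrays, whose probes follow cattle sequence, so the level of one probe set was not set against that of another. Values are log2 units of the robust multichip average (RMA), in which 1 unit is a 2-fold difference.

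Steroidogenic luteal cells make progesterone from cholesterol and take up glucose, amino acids and fatty acids from a dense capillary bed. Glucose enters cells mainly through SLC2 carriers, lactate crosses membranes through SLC16 carriers, and most carriers of the inner mitochondrial membrane belong to SLC25. In other tissues, several amino acid and glucose carriers are known to respond to amino acid supply and to hypoxia at the level of transcription.

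Control replicates 1 and 4 differed more than 2-fold at 6 probe sets, against 220 to 1306 probe sets for every other pair of arrays of the same time, and control replicate 3 stood apart from the other controls at 575 to 802 probe sets. The 2 arrays at 3 h were the pair with 1306. In bulk tissue, fewer cells of a type and less RNA per cell cannot be told apart, and marker lists of several cell types moved with time. Of 7 luteal markers, 1 was called lower at 6 h and 4 at 18 h, and their mean level was 13.13 to 13.54 at 0 h, 12.66 to 13.12 at 6 h and 12.12 to 12.7 at 18 h. Of 6 macrophage markers listed, 4 were on the array, of which CD14 was called higher at 6 h, and CD14 and CD68 at 18 h, with a mean level of 8.72 to 10.28 at 0 h, 9.77 to 10.02 at 6 h and 10.14 to 10.96 at 18 h. Of 6 endothelial markers, 3 were higher at 6 h and 3 at 18 h (PECAM1 by 1.64 at 6 h). KDR went the other way, by -0.47 at 6 h and -0.53 at 18 h, neither called. The endothelial mean level was 8.21 to 8.65 at 0 h, 8.79 to 9.03 at 6 h and 8.76 to 8.92 at 18 h. Of 6 smooth muscle and mural markers, 2 were higher at 6 h and 2 at 18 h (TAGLN by 1.72 and 2.27). MYH11 went the other way, by -0.61 at 6 h and -0.35 at 18 h, neither called. The mural mean level was 9.36 to 10.15 at 0 h, 10.02 to 10.2 at 6 h and 10.23 to 10.54 at 18 h. Of 6 fibroblast markers, none was called at 6 h and 3 were higher at 18 h (PDGFRA by 3.05). COL3A1 differed by -0.22 at 18 h and was not called. The fibroblast mean level was 11.82 to 12.82 at 0 h, 12.37 to 12.88 at 6 h and 12.92 to 13.31 at 18 h. No lymphocyte, neutrophil or erythroid marker was called. The part of these shifts in the differences given here was not tested.

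The question of the time course was which transcripts changed early and late after the analogue. A gene was called where limma's adjusted p was under 0.05 over all 24016 probe sets. At 6 h, 25 of 179 SLC genes were called, 16 higher and 9 lower. The 16 were 8.94% of the SLC genes, against 6.55% of all named genes called higher, and the 9 were 5.03%, against 7.66% of all named genes called lower. At 18 h, 30 SLC genes were called, 22 higher (12.3%, against 7.55% of all named genes) and 8 lower (4.47%, against 8.35%). None of the 3 h differences was called in an SLC gene, where 0.0109% of all named genes were called higher and 0.0218% lower. At an unadjusted p under 0.05, 13 SLC genes were higher and 8 lower at 3 h, which was 11.7% of them, against 10.9% of all named genes. The median log2 difference over the 179 genes was -0.03 at 6 h and 0.01 at 18 h, and over all named genes it was -0.05 and -0.02.

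At 6 h, 5 called SLC genes were at least 2-fold higher, where 2.52% of all named genes were, and 1 was at least 2-fold lower, where 1.06% were. At 18 h, 9 were at least 2-fold higher, where 3.03% of all named genes were, and 2 at least 2-fold lower, where 1.86% were. In each called SLC gene, no array of the treated time overlapped the control arrays. The same was not counted over all named genes, so it adds nothing to the calls here. The count at 6 h was sensitive to single arrays: it was 13 after removal of either control replicate 1 or control replicate 4, 12 after removal of 6 h replicate 1, and 11 after removal of 6 h replicate 2. With control replicates 1 and 4 averaged into 1 sample, 13 SLC genes were called at 6 h and 20 at 18 h. At 6 h, 10 of the 25 stayed called whichever array was left out (SLC2A1, SLC2A3, SLC12A4, SLC16A1, SLC20A1, SLC20A2, SLC25A17, SLC25A28, SLC38A2 and SLC39A8), and at 18 h, 17 of the 30 did. Scaling moved the split at 6 h, with 18 higher and 5 lower after repeated quantile normalization and 19 higher and 6 lower after median centring.

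**Figure D1:**
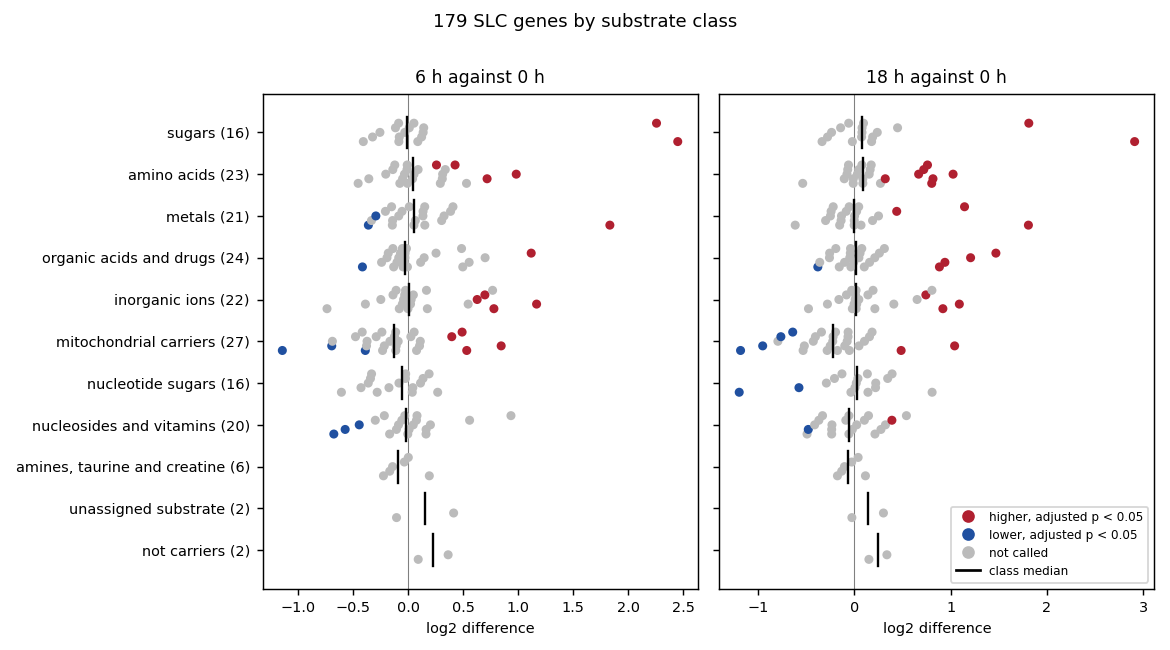
Log2 difference of each of the 179 SLC genes by substrate class, at 6 h against 0 h (left) and 18 h against 0 h (right). Points are genes, red called higher, blue called lower and grey not called, and the black bar is the class median. The sugar carriers had 2 genes far to the right of their class, while the mitochondrial carriers had called genes on both sides.

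Sugar carriers showed the largest SLC differences, and both came from facilitative glucose transporters of the SLC2 family. Of 16 sugar carriers, 2 were higher and none lower at 6 h, and the same was true of the counts at 18 h. Those 2 were 12.5% of the class, against 6.55% of all named genes higher at 6 h and 7.55% at 18 h. Lower were 7.66% and 8.35% of all named genes. SLC2A3 (GLUT3, a high-affinity glucose transporter) read 6.91, 6.09, 6.91 and 6.34 at 0 h, 7.62 and 8.20 at 3 h, 9.13, 9.22 and 8.68 at 6 h, and 10.24, 9.47 and 8.72 at 18 h. Every treated array was above every control array. The difference was 2.45 ± 0.33 (SE) at 6 h (5.46-fold, adjusted p = 0.00199) and 2.91 ± 0.33 at 18 h (7.53-fold, adjusted p = 0.000464).

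SLC2A1 (GLUT1, the broadly expressed basal glucose transporter) read 10.17, 10.24, 10.51 and 10.22 at 0 h, 9.77 and 11.91 at 3 h, 12.50, 12.62 and 12.51 at 6 h, and 12.29, 12.04 and 11.96 at 18 h. The 3 h arrays fell on both sides of the controls, while the 6 h and 18 h arrays were all above them. It was 4.78-fold higher at 6 h (2.26 ± 0.36, adjusted p = 0.00406) and 3.51-fold higher at 18 h (1.81 ± 0.36, adjusted p = 0.00768). Between 18 h and 6 h, neither SLC2A1 (-0.44 ± 0.38, adjusted p = 0.755) nor SLC2A3 (0.46 ± 0.35, adjusted p = 0.706) was called different.

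No other sugar carrier was called against 0 h. Their differences ran between -0.41 and 0.14 at 6 h and between -0.34 and 0.45 at 18 h. SLC2A8 (GLUT8, an intracellular glucose transporter) averaged 8.20 ± 0.13 at 0 h (SD, n = 4), 7.94 ± 0.15 at 6 h (n = 3) and 7.86 ± 0.23 at 18 h (n = 3). SLC2A5 (GLUT5, a fructose transporter) averaged 7.01 ± 0.25 at 18 h and 6.56 ± 0.14 at 0 h.

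**Figure D2:**
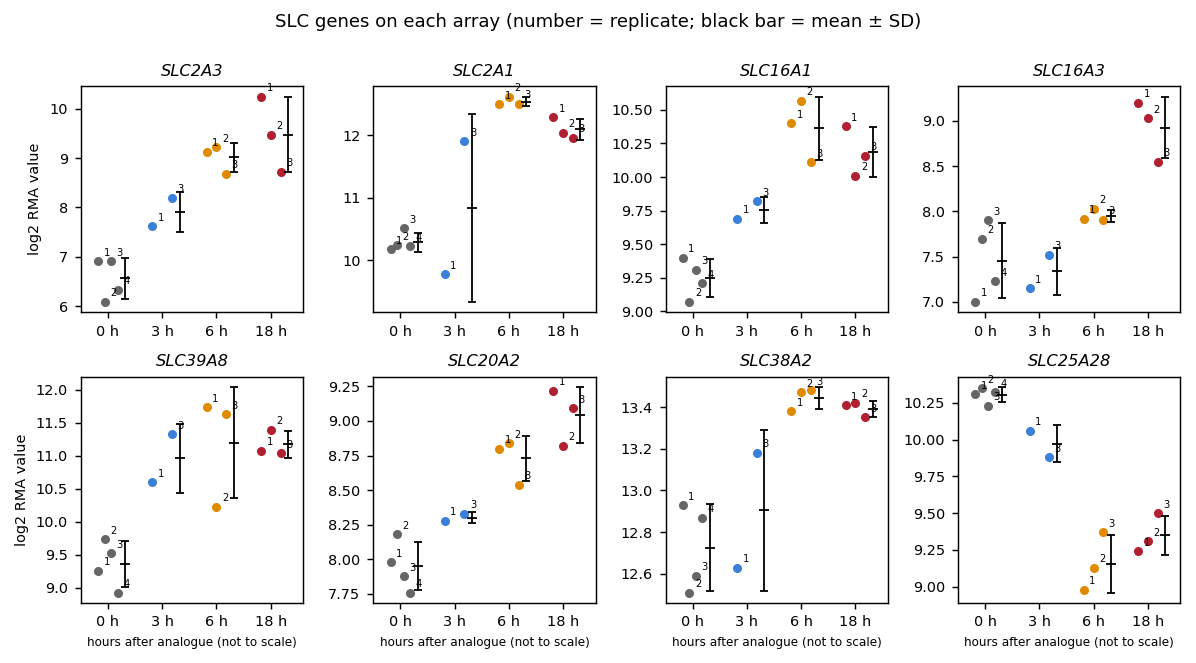
Log2 RMA value of 8 SLC genes on each array at 0, 3, 6 and 18 h, with the replicate number beside each point and the mean ± SD as a black bar. SLC2A3, SLC2A1, SLC16A1, SLC39A8, SLC20A2 and SLC38A2 lay above all controls at 6 h and 18 h, SLC16A3 at 18 h was between 8.55 and 9.20, and SLC25A28 lay below all controls.

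The lactate and pyruvate carriers SLC16A1 and SLC16A3 were also higher, SLC16A1 at both times and SLC16A3 at 18 h. SLC16A1 (MCT1) read 9.40, 9.07, 9.31 and 9.21 at 0 h, 10.40, 10.57 and 10.11 at 6 h, and 10.38, 10.01 and 10.16 at 18 h. It was 2.17-fold higher at 6 h (1.12 ± 0.13, adjusted p = 0.00116) and 1.92-fold higher at 18 h (0.94 ± 0.13, adjusted p = 0.00144). SLC16A3 (MCT4, the lactate exporter of glycolytic tissues) read 9.20, 9.03 and 8.55 at 18 h, against 7.00, 7.70, 7.90 and 7.23 at 0 h.

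All 3 probe sets of SLC16A3 were called higher at 18 h, and the one used was 2.77-fold higher (1.47 ± 0.22, adjusted p = 0.00176). At 6 h it read 7.92, 8.03 and 7.91, with a difference of 0.50 ± 0.22 (adjusted p = 0.178), and the 18 h minus 6 h difference of 0.98 ± 0.23 was not called (adjusted p = 0.107). SLC16A13, a less studied member of the same family, was lower at 6 h (-0.42 ± 0.10, adjusted p = 0.0221) and at 18 h (-0.38 ± 0.10, adjusted p = 0.0287). That call was lost without any of 6 arrays at 6 h and any of 5 at 18 h (adjusted p up to 0.132), and neither of the other 2 probe sets of SLC16A13 was called.

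A list of 6 genes of sugar and lactate use outside the SLC names was read beside these carriers. At 6 h, 3 of the 6 were higher and none lower, and at 18 h 2 were higher. LDHA, the lactate dehydrogenase subunit favouring lactate formation, was 1.21 higher at 6 h (adjusted p = 0.000927) and 2.09 higher at 18 h (adjusted p = 2.38e-05) on the log2 scale. PFKFB3, which makes an activator of glycolysis, was 3.00 higher at 6 h (adjusted p = 0.0117) and 3.52 higher at 18 h (adjusted p = 0.00399). Of 3 probe sets for each gene, 1 of LDHA and 2 of PFKFB3 were called higher at each time. The transcription factor gene HIF1A was 0.34 higher at 6 h (adjusted p = 0.0399) and differed by -0.05 at 18 h (adjusted p = 0.831). BSG, the accessory protein that brings SLC16 carriers to the cell surface, differed by -0.11 at 6 h and -0.14 at 18 h, neither called.

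Among other carriers of organic acids, both SLC17 members that were called, each a carrier of intracellular vesicles or lysosomes, were higher at 18 h. SLC17A9, the vesicular nucleotide transporter, read 7.74, 7.65 and 8.50 at 18 h, against 6.44, 7.00, 7.05 and 6.54 at 0 h (1.21 ± 0.22, adjusted p = 0.00444). SLC17A5 (sialin, which exports sialic acid from lysosomes) was 0.88 ± 0.21 higher (adjusted p = 0.0168). The class held 24 genes, of which 1 was higher and 1 lower at 6 h (4.17% each), against 6.55% and 7.66% of all named genes. At 18 h, 4 were higher (16.7%) and 1 lower (4.17%), against 7.55% and 8.35% of all named genes. The bile acid carrier SLC10A1, a liver gene, averaged 5.45 at 0 h, 5.41 at 6 h and 5.41 at 18 h.

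Of 23 amino acid carriers, 4 were called higher at 6 h (17.4%, against 6.55% of all named genes) and 7 at 18 h (30.4%, against 7.55%). None was called lower at either time, where 7.66% of all named genes were at 6 h and 8.35% at 18 h. The 6 h count was 1 without control replicate 1 or 4 or 6 h replicate 1 or 2, 2 without control replicate 2 or 3, 6 h replicate 3 or 18 h replicate 3, and 6 without either 3 h array. The 18 h count was 3 without control replicate 1 or 3 or 18 h replicate 1, and 4 without control replicate 2 or 4 or 18 h replicate 2 or 3. The median difference of the class was 0.04 at 6 h and 0.09 at 18 h. SLC38A2 (SNAT2, a sodium-coupled carrier of small neutral amino acids) read 12.93, 12.51, 12.59 and 12.87 at 0 h, 13.38, 13.47 and 13.48 at 6 h, and 13.41, 13.42 and 13.35 at 18 h. Its difference was 0.72 ± 0.14 at 6 h (adjusted p = 0.00954) and 0.67 ± 0.14 at 18 h (adjusted p = 0.0102), and both of its probe sets were called higher at both times. SLC38A2 held its call without each array in turn.

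SLC43A2 (LAT4, which exports branched-chain amino acids, phenylalanine and methionine) had tight arrays and differed between the treated times. It read 9.24, 9.29, 9.32 and 9.28 at 0 h, 9.17 and 9.13 at 3 h, 9.61, 9.47 and 9.53 at 6 h, and 10.03, 10.06 and 10.04 at 18 h. The 18 h arrays lay above all others and the 3 h arrays below all others. The 18 h difference from 0 h was 0.76 ± 0.07 (adjusted p = 0.000254), and the 6 h difference of 0.26 ± 0.07 (adjusted p = 0.0465) lost its call without any of 10 arrays (adjusted p up to 0.18).

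SLC7A7 (the y+LAT1 light chain, which carries cationic and neutral amino acids together with SLC3A2) read 7.90, 8.23 and 8.30 at 18 h, against 6.93, 6.93, 7.63 and 6.98 at 0 h. It was 2.03-fold higher at 18 h (1.03 ± 0.20, adjusted p = 0.00746), and at 6 h the difference was 0.31 ± 0.20 (adjusted p = 0.387). The heavy chain SLC3A2 read 10.79, 10.80 and 10.71 at 18 h and 9.96, 9.90, 9.96 and 9.98 at 0 h. Its difference of 0.82 ± 0.23 (adjusted p = 0.0395) lost its call without any of 9 arrays, although the value itself stayed between 0.80 and 0.84. The 3 h arrays of SLC3A2, at 9.54 and 10.82, were far apart, and this spread enters the error that all times share.

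Another light chain that pairs with SLC3A2, SLC7A5 (LAT1, a carrier of large neutral amino acids), was 0.43 ± 0.12 higher at 6 h (adjusted p = 0.0411) and differed by 0.27 ± 0.12 at 18 h (adjusted p = 0.175). The glutamine carrier SLC1A5 (ASCT2) read 7.28, 7.37, 7.33 and 7.16 at 0 h, 8.52, 8.36 and 7.92 at 6 h, and 7.85, 7.77 and 8.65 at 18 h. It was 0.98 ± 0.23 higher at 6 h (adjusted p = 0.0209) and 0.80 ± 0.23 higher at 18 h (adjusted p = 0.0434). SLC1A4 (ASCT1, a carrier of alanine, serine and cysteine) was 0.72 ± 0.20 higher at 18 h (adjusted p = 0.0392), and SLC43A1 (LAT3) was 0.32 ± 0.09 higher (adjusted p = 0.0379). The other SLC1A4 probe set gave 0.11 at 18 h and was not called (adjusted p = 0.47). The calls of SLC7A5, SLC1A5, SLC1A4 and SLC43A1 were each lost without any of 4 to 8 arrays, with adjusted p up to 0.173. Of the 7 amino acid carriers called at 18 h, 3 were called with control replicates 1 and 4 averaged.

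Genes that respond to amino acid shortage or make serine, glycine and glutathione were split in direction. Of 11 such genes, 3 were higher (27.3%) and 1 lower (9.09%) at 6 h, against 6.55% and 7.66% of all named genes. At 18 h none was higher and 3 were lower (27.3%), against 7.55% and 8.35% of all named genes. Among those not called at 6 h were DDIT3 (-0.02), TRIB3 (0.50) and SESN2 (0.28). ATF4, a transcription factor that in mammals drives several amino acid carriers, was 1.13 higher at 6 h (adjusted p = 0.00794), and its difference at 18 h was 0.64 (adjusted p = 0.0747). CHAC1, which degrades glutathione, and MTHFD2, a mitochondrial folate enzyme, were 0.51 and 0.69 higher at 6 h. At 6 h, 1 of 2 CHAC1 probe sets and 2 of 4 MTHFD2 probe sets were called. The 6 h arrays of MTHFD2 overlapped the controls. The serine synthesis enzymes were lower, PSAT1 at 6 h (log2 difference -1.19, adjusted p = 0.0112) and at 18 h (-1.12, adjusted p = 0.0119), and PHGDH at 18 h (-0.96, adjusted p = 0.0374). Of the 3 PSAT1 probe sets, 1 was called lower at each time. GCLC, the catalytic subunit of glutathione synthesis, was also lower at 18 h (-0.83, adjusted p = 0.0144).

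Metal carriers combined 1 large difference, in SLC39A8, with smaller changes in both directions. Of 21 genes, 1 was higher (4.76%) and 2 lower (9.52%) at 6 h, against 6.55% and 7.66% of all named genes. At 18 h, 3 were higher (14.3%) and none lower, against 7.55% and 8.35% of all named genes. SLC39A8 (ZIP8, an importer of zinc and manganese) read 9.26, 9.74, 9.53 and 8.93 at 0 h, 10.60 and 11.33 at 3 h, 11.74, 10.23 and 11.63 at 6 h, and 11.08, 11.40 and 11.04 at 18 h. All treated arrays were above all controls, with 6 h replicate 2 the nearest to them.

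SLC39A8 was 3.56-fold higher at 6 h (1.83 ± 0.34, adjusted p = 0.00762) and 3.50-fold higher at 18 h (1.81 ± 0.34, adjusted p = 0.00563). At 3 h its difference of 1.60 ± 0.38 was the largest of any SLC gene and was not called (adjusted p = 0.217). SLC31A2 (CTR2, a copper transporter of endosomes and lysosomes) read 8.72, 8.54, 9.08 and 8.90 at 0 h, 9.09, 9.05 and 9.27 at 6 h, and 9.92, 9.92 and 10.02 at 18 h. Only its 18 h arrays stood clear of the controls, with a difference of 1.14 ± 0.13 (2.21-fold, adjusted p = 0.000415).

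SLC39A13 (ZIP13, which moves zinc out of the secretory pathway) was 0.44 ± 0.10 higher at 18 h (adjusted p = 0.0118), and its adjusted p was 0.0508 without 18 h replicate 2. The other SLC39A13 probe set gave 0.38 at 18 h and was not called (adjusted p = 0.101). SLC11A2 (DMT1, an importer of ferrous iron) read 7.14, 7.27 and 7.12 at 6 h, against 7.48, 7.35, 7.56 and 7.51 at 0 h. The difference of -0.30 ± 0.08 (adjusted p = 0.044) lost its call without any of 9 arrays, and also after repeated quantile normalization or median centring. SLC39A11 (ZIP11, a zinc transporter) was lower at 6 h (-0.36 ± 0.10, adjusted p = 0.0353), a call that was lost after the same rescalings and without any of 5 arrays.

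SLC11A1 (NRAMP1, the metal exporter of the macrophage phagosome) read 8.60, 7.43 and 9.37 at 18 h and 8.39, 7.95, 9.24 and 8.22 at 0 h, and the groups overlapped. In the same comparison the macrophage markers CD14 and CD68 were 2.64 and 1.60 higher (adjusted p = 0.00352 and 0.00107). The macrophage markers CSF1R and AIF1 differed by 0.345 and 0.70 and were not called (adjusted p = 0.363 and 0.449). Neither SLC30A1, the zinc exporter of the plasma membrane (0.30 at 6 h and -0.14 at 18 h), nor the zinc and iron importer SLC39A14 (0.41 and 0.07) was called. Of 11 metal handling genes outside the SLC names, the metallothionein genes MT1A and MT2A, whose products bind zinc and copper, were 3.60 and 2.03 higher at 6 h (adjusted p = 0.00903 and 0.0109). The ferritin light chain FTL was lower at 6 h (-0.51, adjusted p = 0.00815), and 0.60 higher at 18 h than at 6 h. The 2 higher and 1 lower at 6 h were 18.2% and 9.09% of the 11, against 6.55% and 7.66% of all named genes. None of the 11 was called at 18 h against 0 h.

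Mitochondrial carriers of the SLC25 family were called in both directions. Of 27 genes, 4 were higher (14.8%) and 3 lower (11.1%) at 6 h, against 6.55% and 7.66% of all named genes. At 18 h, 2 were higher (7.41%) and 4 lower (14.8%), against 7.55% and 8.35% of all named genes. The class medians were -0.13 at 6 h and -0.22 at 18 h, against -0.05 and -0.02 over all named genes. Among the 21 not called at 18 h, 17 had a difference below 0 and 4 above 0, and the lowest was -0.80. Counts in this class moved with single arrays, and the number called lower at 18 h was 2 without control replicate 1 or control replicate 4, 6 without control replicate 3 and 8 without either 3 h array.

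**Figure D3:**
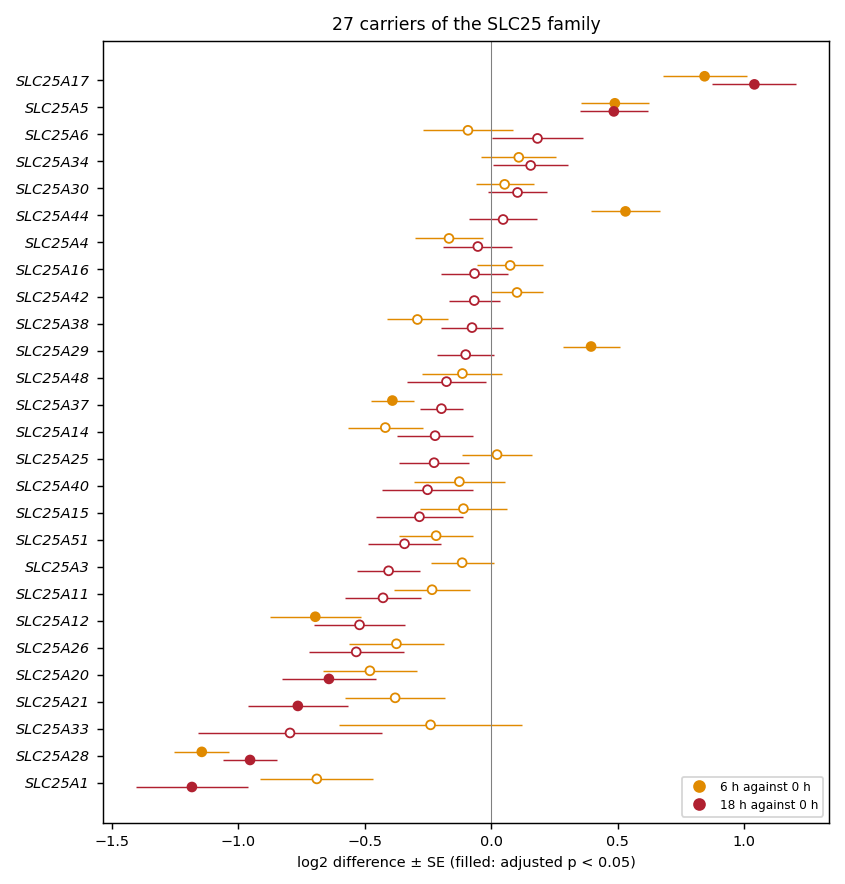
Log2 difference ± SE of the 27 SLC25 genes at 6 h (orange) and 18 h (red) against 0 h, with filled points where adjusted p was under 0.05. SLC25A17 was called higher and SLC25A28 lower at both times, SLC25A5 was called higher at both but lost these calls without 8 of 12 arrays at 6 h and 7 of 12 at 18 h, and SLC25A1 had the lowest value at 18 h (-1.18).

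SLC25A28 (mitoferrin 2, which brings iron into mitochondria) had the lowest adjusted p of any SLC gene at 6 h. It read 10.31, 10.35, 10.23 and 10.32 at 0 h, 8.98, 9.13 and 9.37 at 6 h, and 9.24, 9.31 and 9.50 at 18 h. It was 2.21-fold lower at 6 h (-1.15 ± 0.11, adjusted p = 0.000512) and 1.94-fold lower at 18 h (-0.95 ± 0.11, adjusted p = 0.000472). Its paralogue SLC25A37 (mitoferrin 1) was lower at 6 h (-0.39 ± 0.08, adjusted p = 0.0147), with an adjusted p of 0.0689 without 6 h replicate 1, and differed by -0.20 ± 0.08 at 18 h (adjusted p = 0.164).

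SLC25A1, the citrate carrier that supplies cytosolic acetyl-CoA for lipid synthesis, read 10.88, 10.74, 10.55 and 11.06 at 0 h, 9.75, 10.13 and 10.47 at 6 h, and 9.42, 10.06 and 9.38 at 18 h. The 18 h difference was -1.18 ± 0.22 (2.27-fold lower, adjusted p = 0.00595), and the 6 h difference of -0.69 ± 0.22 was not called (adjusted p = 0.0708). SLC25A20, which carries acylcarnitines for fatty acid oxidation, was lower at 18 h (-0.64 ± 0.19, adjusted p = 0.045). SLC25A21, a carrier of oxodicarboxylates, was lower as well (-0.77 ± 0.20, adjusted p = 0.0281). The SLC25A20 call was lost without any of 7 arrays and the SLC25A21 call without control replicate 1 or 4 or 18 h replicate 2 or 3 (adjusted p up to 0.189 and 0.103). The other SLC25A20 probe set gave -0.46 at 18 h and was not called (adjusted p = 0.14). SLC25A12, the aspartate and glutamate carrier of the malate-aspartate shuttle, was lower at 6 h (-0.70 ± 0.18, adjusted p = 0.0307), and the call was lost without any of 5 arrays (adjusted p up to 0.134). Its other probe sets gave -0.53 and -0.69 at 6 h and were not called (adjusted p = 0.0577 and 0.141).

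The higher members of the family included SLC25A17, which is a peroxisomal carrier of CoA and adenine nucleotides. It read 10.03, 9.70, 10.21 and 10.03 at 0 h, 10.84, 10.80 and 10.87 at 6 h, and 11.25, 10.71 and 11.14 at 18 h. Its difference was 0.84 ± 0.17 at 6 h (adjusted p = 0.00998) and 1.04 ± 0.17 at 18 h (adjusted p = 0.00264). SLC25A44, a carrier of branched-chain amino acids, was 0.53 ± 0.14 higher at 6 h (adjusted p = 0.0286) and SLC25A29, a carrier of basic amino acids, was 0.40 ± 0.11 higher (adjusted p = 0.0445). At 18 h SLC25A44 and SLC25A29 differed from 0 h by 0.05 and -0.10. Both 6 h calls were lost without any of 5 or 9 arrays, with adjusted p up to 0.117 and 0.176.

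The ADP/ATP carriers SLC25A4, SLC25A5 and SLC25A6 are near copies of each other, and probes may share their signal. SLC25A5 was 0.49 ± 0.13 higher at 6 h (adjusted p = 0.0384) and at 18 h (adjusted p = 0.0372). The 6 h call was lost without any of 8 arrays (adjusted p up to 0.148) and the 18 h call without any of 7 (up to 0.121), and both were lost after repeated quantile normalization. The other probe set of SLC25A5 gave 0.14 and 0.10, neither called. SLC25A4 differed by -0.17 at 6 h and -0.05 at 18 h, and SLC25A6 by -0.09 and 0.18. SLC25A3, the phosphate carrier, read 13.44, 13.73 and 13.30 at 18 h, against 13.86, 13.95, 13.82 and 13.94 at 0 h, with an adjusted p of 0.0573. Of 10 mitochondrial transport genes outside SLC25, MPC1, a subunit of the pyruvate carrier, was the one called, 0.64 higher at 18 h (adjusted p = 0.0299).

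Of 22 inorganic ion carriers, 4 were called higher at 6 h (18.2%, against 6.55% of all named genes) and 3 at 18 h (13.6%, against 7.55%). None was called lower, where 7.66% of all named genes were at 6 h and 8.35% at 18 h. The sodium-coupled phosphate importers SLC20A1 and SLC20A2 were both higher at 6 h. SLC20A1 (PiT1) read 10.30, 10.31, 10.44 and 10.22 at 0 h, 11.50, 11.54 and 11.41 at 6 h, and 11.07, 10.64 and 11.19 at 18 h. It was 2.24-fold higher at 6 h (1.17 ± 0.22, adjusted p = 0.00858), and the 18 h difference of 0.65 ± 0.22 was not called (adjusted p = 0.0808), although no 18 h array overlapped the controls.

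SLC20A2 (PiT2) read 7.98, 8.18, 7.88 and 7.76 at 0 h, 8.80, 8.84 and 8.54 at 6 h, and 9.22, 8.82 and 9.09 at 18 h. It was 0.78 ± 0.13 higher at 6 h (adjusted p = 0.00477) and 1.09 ± 0.13 higher at 18 h (adjusted p = 0.000554). SLC12A2 (NKCC1, which brings sodium, potassium and chloride into cells) read 6.97, 7.05, 7.63 and 7.23 at 0 h, 7.93, 7.98 and 7.83 at 6 h, and 7.17, 7.21 and 7.33 at 18 h. The 18 h arrays lay among the controls, and the 6 h arrays above both.

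Both probe sets of SLC12A2 were called higher at 6 h, the one used by 0.70 ± 0.14 (adjusted p = 0.0121), with an adjusted p of 0.0535 without 6 h replicate 2. Its 18 h minus 6 h difference of -0.68 ± 0.15 did not pass (adjusted p = 0.0924). The potassium chloride exporter SLC12A4 (KCC1) was 0.63 ± 0.12 higher at 6 h (adjusted p = 0.0102) and 0.74 ± 0.12 higher at 18 h (adjusted p = 0.00327). SLC4A7, a sodium bicarbonate importer, was 0.92 ± 0.22 higher at 18 h (adjusted p = 0.0198), a call lost without any of 5 arrays (adjusted p up to 0.0861). The red cell anion exchanger SLC4A1 averaged 4.39 at 0 h, 4.35 at 6 h and 4.40 at 18 h.

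**Figure D4:**
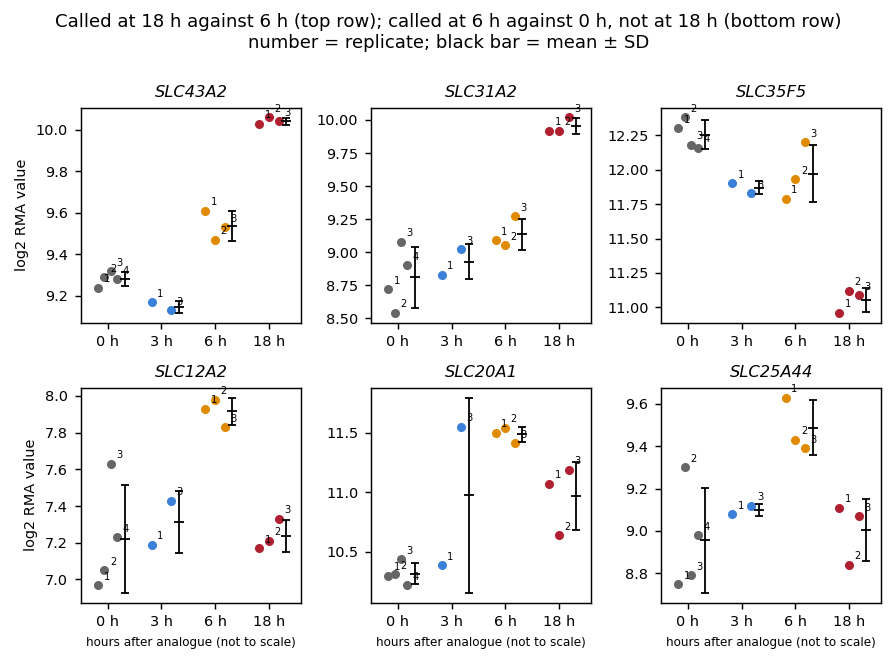
Log2 RMA value on each array for the 3 SLC genes called between 18 h and 6 h (top) and for 3 genes called at 6 h and not at 18 h against 0 h (bottom), with replicate numbers and mean ± SD. The 18 h arrays of SLC43A2 and SLC31A2 were above and those of SLC35F5 below all other arrays, and the 18 h minus 6 h difference was not called in SLC12A2, SLC20A1 or SLC25A44 (adjusted p = 0.0924, 0.446 and 0.191).

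Nucleotide sugar carriers bring activated sugars into the Golgi and the endoplasmic reticulum, and SLC35 genes of unknown substrate were counted with them. Of 16 genes, none was called at 6 h and 2 were lower at 18 h (12.5%, against 8.35% of all named genes). SLC35F5, whose substrate is not established, read 12.30, 12.38, 12.18 and 12.16 at 0 h, 11.90 and 11.83 at 3 h, 11.79, 11.93 and 12.20 at 6 h, and 10.96, 11.12 and 11.09 at 18 h. It had the lowest adjusted p of any SLC gene at 18 h (-1.20 ± 0.11, 2.29-fold lower, adjusted p = 0.000159). SLC35A1, which carries CMP-sialic acid, was lower at 18 h (-0.58 ± 0.12, adjusted p = 0.0117), with an adjusted p of 0.0519 without 18 h replicate 2. SLC35D2, a carrier of UDP-sugars, read 7.92, 7.52 and 7.86 at 6 h and 8.24, 8.15, 8.03 and 8.37 at 0 h, and was not called (adjusted p = 0.0501).

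Carriers of nucleosides, vitamins, choline and fatty acids included called genes in both directions. Of 20 genes, 3 were lower and none higher at 6 h, and 1 was lower and 1 higher at 18 h. At 6 h the share lower was above the 7.66% of all named genes, and the share higher was below 6.55%. At 18 h the shares lower and higher were both below those of all named genes (8.35% and 7.55%). The 6 h count of 3 lower ran between 0 and 3 when 1 array was left out, and was 1 with control replicates 1 and 4 averaged. SLC27A1 (FATP1, a fatty acid importer) read 7.05, 6.77, 6.42 and 6.90 at 0 h, 6.17, 5.87 and 6.29 at 6 h, and 6.58, 6.52 and 6.56 at 18 h. Its 6 h difference was -0.68 ± 0.15 (adjusted p = 0.0149), with an adjusted p of 0.072 without 6 h replicate 2, and its other probe set was not called. SLC44A2, a choline transporter, was lower at 6 h (-0.45 ± 0.12, adjusted p = 0.0369) and at 18 h (-0.48 ± 0.12, adjusted p = 0.025), and both its probe sets were called at 18 h. SLC52A2, a riboflavin transporter, was lower at 6 h (-0.57 ± 0.17, adjusted p = 0.048) in 2 of its 3 probe sets. SLC33A1, which brings acetyl-CoA into the endoplasmic reticulum, was 0.39 ± 0.11 higher at 18 h (adjusted p = 0.0452). SLC27A5, a bile acid and fatty acid CoA ligase of liver, averaged 4.93 ± 0.18 at 0 h, 4.76 ± 0.18 at 6 h and 4.69 ± 0.07 at 18 h, and was not called. The calls of SLC44A2, SLC52A2 and SLC33A1 were each lost without any of 4 to 8 arrays, with adjusted p up to 0.191.

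None of the 6 carriers of amines, taurine and creatine was called, and their differences ran between -0.23 and 0.19 at 6 h and between -0.18 and 0.11 at 18 h. SLC6A6, the taurine transporter, averaged 6.41 ± 0.14 at 0 h, 6.26 ± 0.05 at 6 h and 6.23 ± 0.11 at 18 h. The serotonin transporter SLC6A4 averaged 4.63 at 0 h, 4.63 at 6 h and 4.67 at 18 h. SLC18A2, the vesicular monoamine transporter, averaged 6.33 ± 0.10 at 0 h, 6.52 ± 0.20 at 6 h and 6.19 ± 0.39 at 18 h. The 2 genes of unassigned substrate were not called: SLC66A2 averaged 8.56 ± 0.25 at 0 h, 8.97 ± 0.02 at 6 h (adjusted p = 0.0512) and 8.86 ± 0.05 at 18 h, and SLC66A3 averaged 9.73 ± 0.15, 9.62 ± 0.27 and 9.70 ± 0.34 at those times. Neither non-carrier was called, with differences at 6 h and 18 h of 0.36 and 0.34 in SLC4A1AP and of 0.09 and 0.15 in SLC7A6OS.

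In the direct comparison of 18 h with 6 h, control values do not enter the difference but do enter the error that all times share. It called 3 SLC genes, 2 higher and 1 lower. They were 1.12% and 0.559% of the SLC genes, against 0.371% of all named genes called higher and 0.273% called lower. SLC31A2 was 0.82 ± 0.13 higher at 18 h than at 6 h (adjusted p = 0.0299), SLC43A2 was 0.50 ± 0.08 higher (adjusted p = 0.0275), and SLC35F5 was lower by 0.92 ± 0.12 (log2 difference -0.92, adjusted p = 0.0119). Each of these calls depended on single arrays. SLC35F5 lost its call without 6 h replicate 2 or 18 h replicate 1 (adjusted p up to 0.0641), SLC31A2 without any of 8 arrays (up to 0.149) and SLC43A2 without any of 7 (up to 0.14). For both SLC31A2 and SLC43A2 these arrays included control replicates 1 and 4. The luteal markers included 1 gene called lower and none higher in the same comparison, and no macrophage marker was called.

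**Figure D5:**
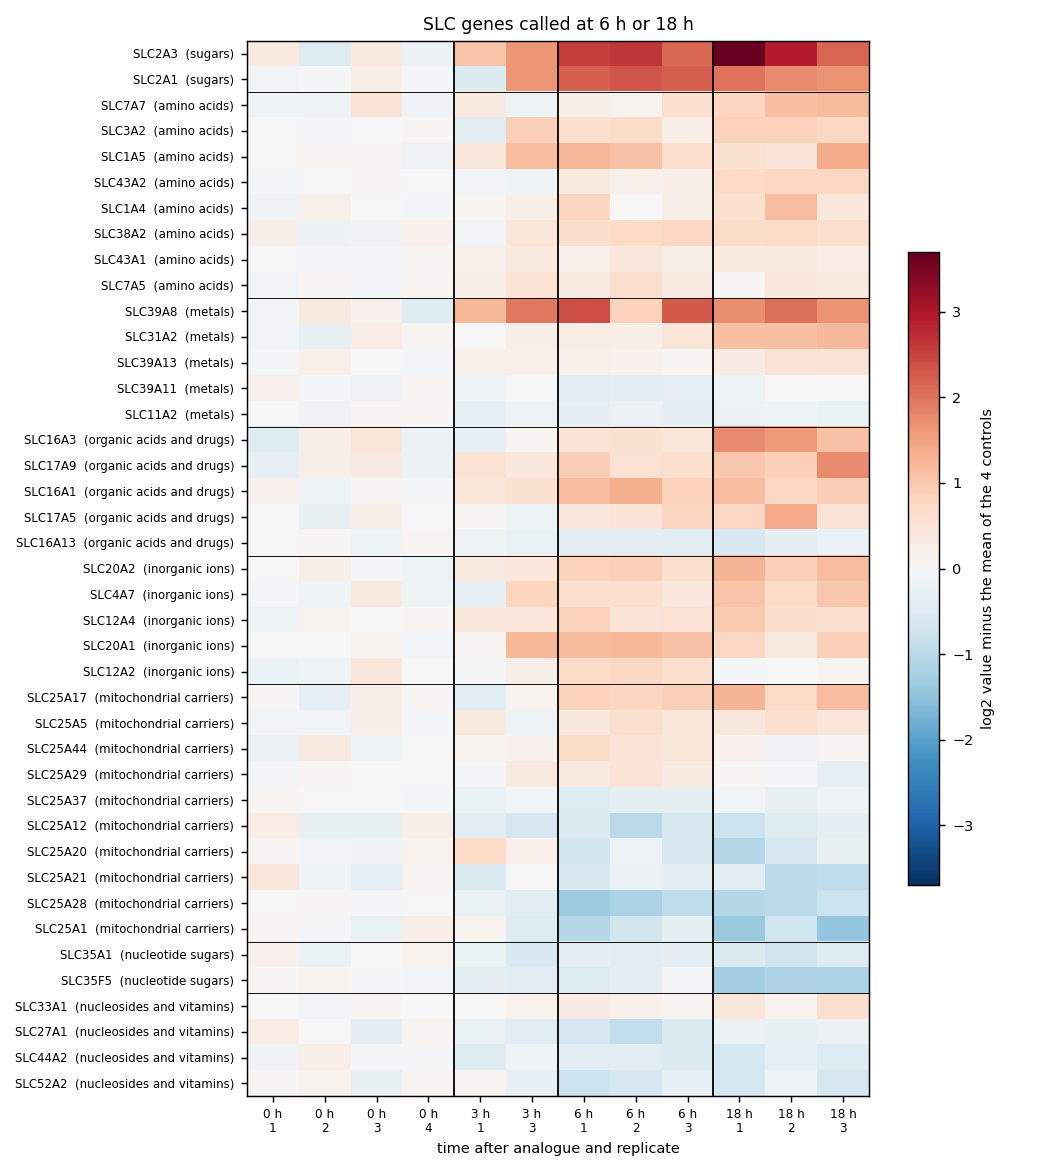
Log2 value minus the mean of the 4 controls on each of the 12 arrays for the 41 SLC genes called at 6 h or 18 h against 0 h, grouped by substrate class. Red is higher and blue lower, and the values run between -1.42 and 3.68, with the highest in SLC2A3 at 18 h.

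At 3 h, the 2 arrays parted in some SLC genes, and replicate 3 was the higher array in SLC2A1, SLC20A1 and SLC3A2. These are also the genes called below without replicate 1, so this direction follows from the choice of genes. SLC22A5 parted the other way, with 10.35 in replicate 1 and 8.01 in replicate 3. SLC2A1 was 9.77 in replicate 1 and 11.91 in replicate 3, SLC20A1 was 10.39 and 11.55, and SLC3A2 was 9.54 and 10.82. Without 3 h replicate 1, the remaining array was tested with the spread of the other times, and 3 SLC genes were called higher at 3 h. These were SLC2A1 (1.62, adjusted p = 0.00118), SLC20A1 (1.24, adjusted p = 0.00764) and SLC3A2 (0.87, adjusted p = 0.0195). Without 3 h replicate 3, none was called.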

How the data were processed

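Gene expression was measured in corpora lutea of 12 buffalo cows, 1 array each, at 0, 3, 6 and 18 h after cloprostenol. The authors deposited log2 values per probe set, made per the labels by robust multichip average, and the software version and chip definition are not given in the sources read here. Of 24128 probe sets, 112 controls were left out. The platform annotation gave 1 symbol for 13292 probe sets, several for 86 and none for 10638. The arrays' number limits precision. Deposited values were fitted with limma 3.58.1 in R 4.3.3 (4 group means, all 12 arrays, empirical Bayes, two-sided), with Benjamini-Hochberg adjustment over 24016 probe sets, and the script was tested on simulated data. P-values measure the spread between arrays of the same time, which the labels name as separate animals. Control replicates 1 and 4, the most alike pair, count as 2 animals in them. Substrate classes and gene lists came from textbook substrates and roles, and members and lists were chosen with earlier results of these data known. Every called SLC gene could be named. Values were given for the 5 largest called rises and falls per comparison with 0 h, for up to 3 genes per class with the lowest adjusted p over the 3 comparisons together, and for a fixed set of transporters. Other called SLC genes given with values, such as SLC17A5 and SLC16A13, were chosen after their values were seen. Probe-set choice, dim-signal filtering, scaling, the prior, the error model, the replicate block, averaging of the 2 most alike controls and leaving out each array were tried as alternatives.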

Additional observations from a re-analysis of the deposited data

Results flagged for a closer look

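In the control group of 4, SLC25A37 (mitoferrin 1) had an array far from the others: replicate 1 read 8.77, against 8.66 to 8.67 in replicates 2, 3 and 4. SLC7A7 (the y+LAT1 light chain) had replicate 3 at 7.63, against 6.93 to 6.98 in the other controls, and still below the 18 h arrays at 7.90 to 8.30. Of 50 control groups screened, these 2 stood out, and chance marks about 1 in 20 groups.

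The difference from 0 h was not the same at 18 h as at 6 h in 3 genes by limma's test of 18 h against 6 h. SLC31A2, the copper transporter, was higher at 18 h by 0.82 (0.819 as fitted, adjusted p = 0.0299). SLC43A2, the amino acid exporter, was higher by 0.50 (0.504, adjusted p = 0.0275). SLC35F5, whose substrate is not established, had a log2 difference of -0.92 (-0.915, adjusted p = 0.0119).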

How the results depend on the processing

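The 6 h count of 25 SLC genes was 9 with the replicate block and 13 with control replicates 1 and 4 averaged, and ran between 11 and 31 when 1 array was left out. Under the replicate block the 18 h count of 30 was 20 and the 18 h against 6 h count of 3 was 0. With 1 array left out these ran between 20 and 41 and between 0 and 4, and the 3 h count between 0 and 3. Whether the replicate numbers pair the animals is not stated in the labels. Same-numbered arrays had deviations correlating between -0.26 and 0.191 over 15 pairs, and arrays of different number between -0.293 and 0.26. These values cannot decide on pairing, because deviations from a mean of 2 to 4 arrays are bound to each other. Called in every alternative were 8 genes at 6 h, 16 at 18 h and 0 between 18 h and 6 h. Over the named genes in all 4 comparisons, 3888 recomputed values kept their side of the threshold, 253 lost a call and 47 gained one. No value called in the main or the alternative fit reversed its direction, and the direction of values uncalled in both was not counted. The cause of the lost calls was not tested. The dim-signal filter left 114 of the 179 genes and called 30 at 6 h and 32 at 18 h. Precision rests on 2 to 4 arrays a time, and array signal over background was not analysed here.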
